A study of Mus musculus with 12 samples.

Results

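Chromatin accessibility of wild-type (WT) mouse embryonic stem cells (ESCs) was compared between cells arrested in mitosis and cells growing asynchronously. The comparison rests on 4 of the 12 ATAC-seq libraries of the study, chosen by their sample labels, 2 of mitotic and 2 of asynchronous WT ESCs. The other 8 libraries came from the Suv39h dn line, which lacks both Suv39h1 and Suv39h2 histone methyltransferases, and from mitotic chromosomes of both lines isolated by flow sorting. All 4 WT libraries came from a single male line of unmodified genotype cultured with serum and leukaemia inhibitory factor (LIF). Mitotic ESCs were blocked in metaphase with 0.1 µg/ml demecolcine for 6 h, collected by shake-off and placed whole in the transposase mixture, whereas asynchronous ESCs were first reduced to nuclei with detergents. Mitosis, the drug and the absence of nuclear extraction therefore cannot be told apart in these libraries. An asynchronous culture also holds cells of every stage of the cycle. Nothing in the labels places the paired libraries in separate cultures, so the spread between them may be technical.

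In ATAC-seq, the Tn5 transposase inserts sequencing adapters into open DNA, and fragments pile up at promoters, enhancers and sites bound by transcription factors. During mitosis chromosomes condense, transcription largely stops and many factors leave the DNA. Some, called bookmarking factors, stay on a part of their sites, among them the nuclear receptor Esrrb in ESCs. NF-Y binds CCAAT boxes of promoters, and CTCF is the zinc-finger protein that marks many boundaries of chromatin loops.

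Peaks of the 4 lists were merged where they overlapped or touched, which gave 63895 regions. A region was called kept when it held a peak in all 4 lists, lost when it held one in both asynchronous lists and in neither mitotic list, and new in the reverse case. Of all regions, 3199 (5.01%) were kept, 8690 (13.6%) were lost and 43 (0.0673%) were new. The sequences below span 100 bp on either side of a summit, on the plus strand of GRCm38 (mm10), 5′ to 3′, and capitals mark matches to any of the 12 motifs searched. They show the strongest lost and new region at a promoter and the strongest kept, lost and new region elsewhere, among those outside untranslated regions. A lost region with an Esrrb motif, one with a CTCF motif and a kept promoter with an NF-Y motif are also shown.
Kept region with NF-Y motif at Zfp960, chr17:17063889-17064089: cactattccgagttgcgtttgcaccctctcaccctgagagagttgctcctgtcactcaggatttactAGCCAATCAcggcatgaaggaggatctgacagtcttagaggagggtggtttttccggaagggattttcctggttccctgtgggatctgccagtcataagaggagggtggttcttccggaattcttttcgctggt
Kept intergenic region 35532 bp upstream of Pak3, chrX:143482959-143483159: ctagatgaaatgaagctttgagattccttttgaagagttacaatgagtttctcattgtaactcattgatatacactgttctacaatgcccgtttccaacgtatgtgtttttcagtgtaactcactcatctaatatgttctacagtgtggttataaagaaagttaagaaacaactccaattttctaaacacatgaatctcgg
Lost promoter region of Cnksr3, chr10:7211424-7211624: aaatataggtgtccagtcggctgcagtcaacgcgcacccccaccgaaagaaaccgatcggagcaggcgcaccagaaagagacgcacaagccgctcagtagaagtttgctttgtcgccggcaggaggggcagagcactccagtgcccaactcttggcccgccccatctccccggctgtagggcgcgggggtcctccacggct
Lost intergenic region upstream of Gm14444, chr2:175004492-175004692: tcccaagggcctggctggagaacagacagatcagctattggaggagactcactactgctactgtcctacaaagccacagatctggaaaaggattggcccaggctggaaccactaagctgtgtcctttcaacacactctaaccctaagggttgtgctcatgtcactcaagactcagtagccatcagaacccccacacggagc
Lost intergenic region with Esrrb and Sox motifs near Emc2, chr15:43529947-43530147: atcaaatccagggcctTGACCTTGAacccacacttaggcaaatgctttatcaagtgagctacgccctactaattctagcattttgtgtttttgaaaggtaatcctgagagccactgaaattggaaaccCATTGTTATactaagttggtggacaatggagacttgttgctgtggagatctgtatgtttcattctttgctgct
Lost intergenic region with CTCF motif, nearest to Ccdc54, chr16:50736856-50737056: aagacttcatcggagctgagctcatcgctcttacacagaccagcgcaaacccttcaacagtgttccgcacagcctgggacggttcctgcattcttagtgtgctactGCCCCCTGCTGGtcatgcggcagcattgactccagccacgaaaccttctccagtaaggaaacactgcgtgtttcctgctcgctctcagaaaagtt
New promoter region of Znrf3, chr11:5444982-5445182: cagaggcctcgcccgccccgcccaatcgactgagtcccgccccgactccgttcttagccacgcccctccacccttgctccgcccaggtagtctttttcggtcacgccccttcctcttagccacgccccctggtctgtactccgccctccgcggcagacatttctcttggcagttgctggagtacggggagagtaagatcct
New intronic region nearest to Foxn3, chr12:99645067-99645267: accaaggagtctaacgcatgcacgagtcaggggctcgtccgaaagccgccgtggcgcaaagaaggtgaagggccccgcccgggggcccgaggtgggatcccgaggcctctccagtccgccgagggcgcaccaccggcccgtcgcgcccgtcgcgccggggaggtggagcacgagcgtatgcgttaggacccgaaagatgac

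Mitotic ESCs had fewer called peaks than asynchronous ESCs. The deposited lists held 22344 and 56897 peaks in asynchronous and 6495 and 13320 peaks in mitotic ESCs, so that both mitotic lists were shorter than both asynchronous lists. The difference in mean log2 list length was −1.94, a ratio of 0.261, with SDs of 0.95 in asynchronous and 0.73 in mitotic libraries (n = 2, exact two-sided permutation p = 0.333). With 2 libraries a side, 0.333 is the smallest p this test can give, so no comparison between the groups can pass a threshold of 0.05. Read depth is not stated in a peak list. The lowest background that could be worked out from the listed fold and p values was 0.149 and 0.306 fragments per base in the asynchronous libraries and 0.206 and 0.239 in the mitotic libraries. The part of depth in the list lengths was not tested.

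The cell-type check used promoters, defined as summits within 1 kb of an annotated start site. All protein-coding genes had a promoter peak in 30.2% and 50.0% of cases in the asynchronous and 15.6% and 23.7% in the mitotic lists. Of 8 ESC marker genes, such as Pou5f1, Sox2 and Nanog, 4 and 7 had a promoter peak in the asynchronous lists and 2 and 3 in the mitotic lists. Of 8 fibroblast markers none had one in 3 of the lists, and 1 had one in the second asynchronous list. Of 6 markers of primitive endoderm, 1 and 4 had a promoter peak in the asynchronous lists and none in the mitotic lists. Among 4 markers of neuroectoderm, 2 and 3 had one in the asynchronous lists, and none and 3 in the mitotic lists.

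**Figure D1:**
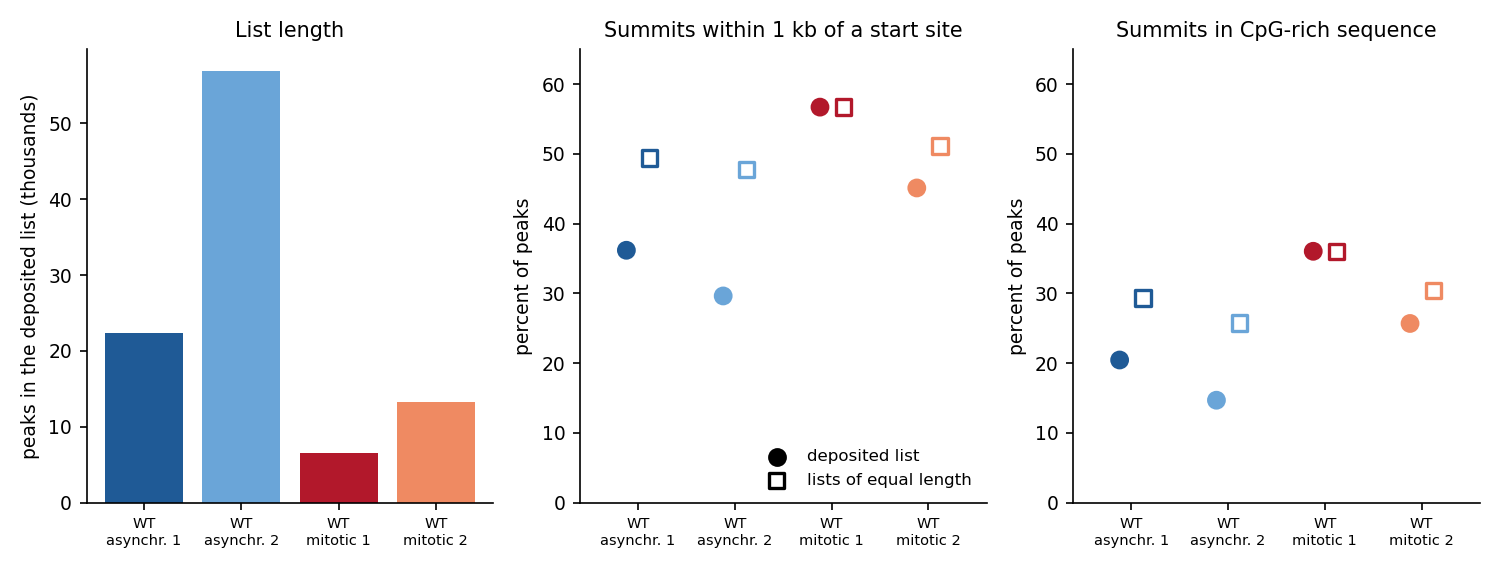
List length (left, bars, in units of 1000 peaks) and the share of summits, in percent, at promoters (middle) or in CpG-rich sequence (right), for each of the 4 libraries; filled circles are deposited lists and open squares are lists shortened to 6495 peaks. Both mitotic libraries lie above both asynchronous libraries in the middle and right panels, and shortening the lists narrows the gap.

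A larger share of the mitotic peaks lay at promoters. Summits within 1 kb of a start site made up 36.2% and 29.6% of the asynchronous lists and 56.7% and 45.1% of the mitotic lists. The means were 32.9% ± 4.63 and 50.9% ± 8.19 (SD, n = 2), a difference of 18 percentage points, and the groups did not overlap (exact two-sided permutation p = 0.333). The libraries differed in list length, so all lists were shortened to their 6495 peaks with the smallest p-values. Promoter shares were then 49.4% and 47.8% in asynchronous and 56.7% and 51.2% in mitotic ESCs. The order of the groups was kept, with a smaller gap.

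CpG-rich sequence, which covers most promoters of housekeeping genes, followed the promoter share. It was counted where the 250 bp on either side of a summit held over 55% G+C with an observed over expected CpG ratio over 0.65. CpG-rich peaks made up 20.5% and 14.7% of the asynchronous lists and 36.0% and 25.7% of the mitotic lists (means 17.6% ± 4.08 and 30.9% ± 7.31, SD, n = 2, exact permutation p = 0.333). In lists of equal length the shares were 29.3% and 25.8% against 36.0% and 30.4%. Outside promoters few peaks were CpG-rich, with 1.68% and 1.75% in the asynchronous lists and 3.17% and 2.01% in the mitotic lists.

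Summits at promoters sat just upstream of the start site in every library. The median position was −42 and −37 bp in asynchronous ESCs and −56 and −53.5 bp in mitotic ESCs. In lists of equal length it was −51 and −56 bp against −56 and −62 bp, so that the positions of the groups met. Within 200 bp upstream of the start site lay 55.1% and 48.4% of the asynchronous and 60.9% and 57.1% of the mitotic promoter summits. At equal length this order turned, with 62.9% and 65.02% against 60.9% and 60.8%.

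**Figure D2:**
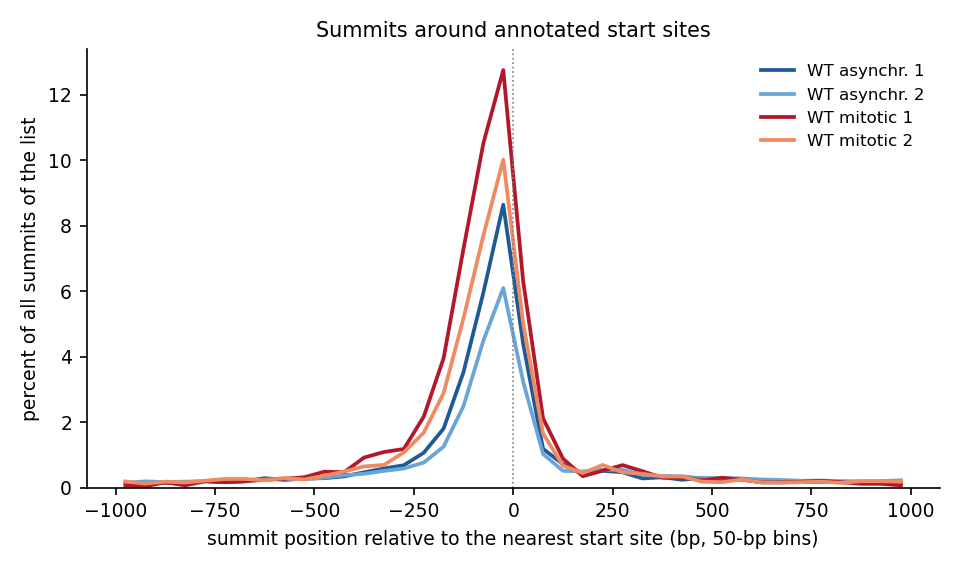
Percent of all summits of a list (vertical axis) in 50-bp bins around the nearest annotated start site (horizontal axis, bp, negative values upstream), with 1 line per library. All 4 lines peak just upstream of the start site, and both mitotic lines are higher there than both asynchronous lines.

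Most mitotic peaks overlapped a peak of asynchronous cells. For this count the lists were merged in pairs. Of the merged regions with a mitotic peak, 88.6% and 85.7% also held a peak of the longer asynchronous list. With the shorter asynchronous list the shares were 65.1% and 56.8%. In the opposite direction, the mitotic lists covered 18.7% and 33.6% of the merged regions of the first asynchronous list and 9.8% and 19.6% of the second. The mitotic lists covered each other incompletely, with 57.6% of the regions of the shorter list found in the longer and 27.7% in the opposite direction. In lists of equal length, the asynchronous pair shared 40.7% of their merged regions and the mitotic pair 26.5%, beside 25.4% to 33.5% for pairs from different groups. The mitotic libraries were thus no more like each other than like some asynchronous libraries.

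Where a region was kept, its position within the region changed little. The median distance between the summits of 2 libraries was 27 bp within the asynchronous pair, 35 bp within the mitotic pair and 28 to 33 bp between groups. Peaks of kept regions were narrower in mitosis, with medians of 160 and 241 bp in asynchronous and 100 and 138 bp in mitotic ESCs. Their fold, the pileup at the summit over the local background after 1 was added to each, had medians of 7.51 and 11.9 in asynchronous and 6.04 and 6.92 in mitotic ESCs.

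The fate of a region differed by its kind. Of the 17122 regions with a peak in both asynchronous lists, 18.7% were kept, 30.6% held a peak in 1 mitotic list and 50.8% were lost. Of these, 6903 lay at promoters, and 29.9% of them were kept and 36.2% were lost. Of the 10219 regions elsewhere, 11.1% were kept and 60.6% were lost. Exons (8.84% kept), introns (10.2%) and intergenic regions (12.04%) lay near the value for all regions outside promoters. CpG-rich promoters were kept in 34.8% of 3773 cases and other promoters in 23.99% of 3130. Regions share libraries and are not replicates, so these shares are descriptions of 4 lists. The counts also moved with single libraries. Without the first asynchronous library 43899 regions were lost, and without the second 13769 were lost and 591 new. Without the first mitotic library 7455 were kept and 1710 new, and without the second 648 were new.

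Strength in asynchronous cells went with retention. The 17122 regions were put in 10 bins by their mean percentile of the fold in both asynchronous lists. In the strongest bin 64.95% of the regions were kept and 6.1% were lost, and in the weakest bin 4.9% were kept and 80.9% were lost. Promoter regions were kept more often than other regions in 10 of 10 bins, by 4.19 to 21.2 percentage points, with a mean of 11.9. Without the first asynchronous library this mean was 6.41. In lists of equal length they were kept more often in 9 of 10 bins, by a mean of 17.9 points. The exception was the strongest bin, where promoters minus other regions came to −9.18 points (80.9% against 90.1%).

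**Figure D3:**
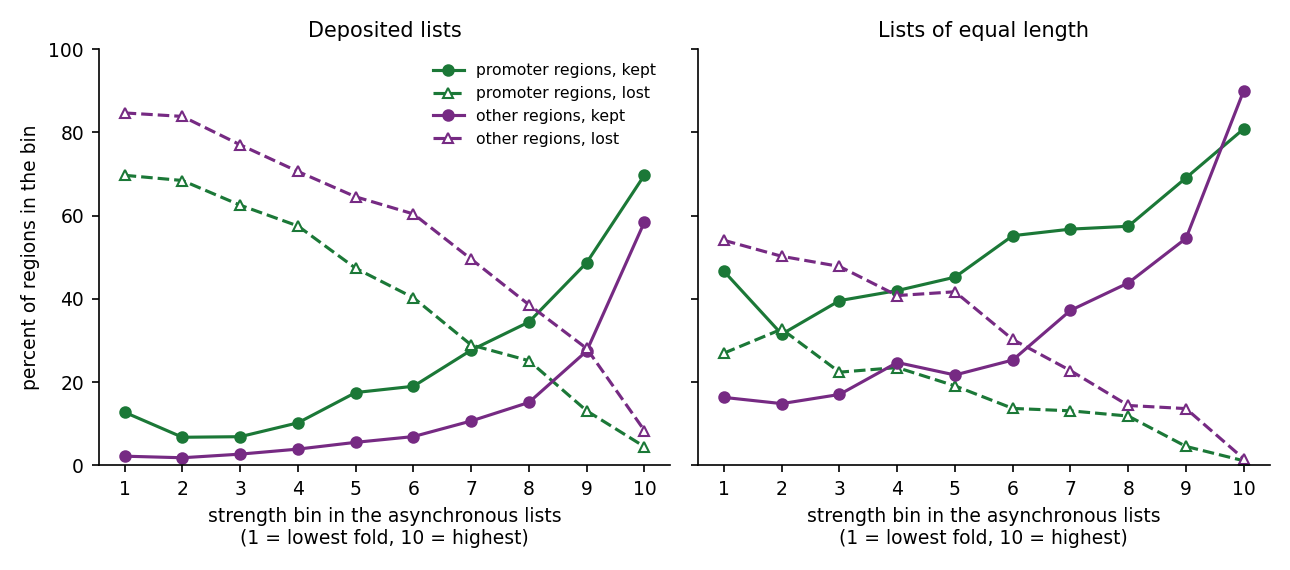
Percent of regions kept (circles, solid) or lost (triangles, dashed) in mitosis, for regions of both asynchronous lists in 10 bins of equal size by strength, at promoters (green) and elsewhere (purple), in deposited lists (left) and lists of 6495 peaks (right). Over all regions of the deposited lists the kept share is 4.9% in the weakest and 64.95% in the strongest bin, and promoters lie above other regions in 10 and 9 of the 10 bins.

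The regions were also set against a detection limit of the mitotic lists. Fragments and background at each asynchronous summit were scaled to the background of the mitotic libraries and set against the weakest p-value in the mitotic lists. Of the 17122 regions, 15727 (91.9%) lay above this limit in both mitotic libraries, as did 99.0% of the kept and 86.6% of the lost regions. Of these 15727, 7523 (47.8%) were lost. At promoters 33.6% of the regions above the limit were lost, and elsewhere 57.8%. All these regions had already passed the cut-offs of both asynchronous lists, so most could be expected above the limit. No sampling error was added to the scaled fragments. The limit therefore cannot tell how many lost regions near it were missed by sampling.

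Shortening the lists to 6495 peaks gave 14249 regions, of which 1653 (11.6%) were kept, 897 (6.3%) were lost and 509 (3.57%) were new. Promoters made up 64.3% of the kept, 36.6% of the lost and 58.9% of the new regions, beside 45.7% of all. Of the 897 lost regions, 372 held a peak further down the deposited list of the second mitotic library. Of the 509 new regions, 482 held a peak in the deposited second asynchronous list, 290 in the first and 15 in neither. These were therefore sites that ranked higher in mitotic than in asynchronous lists, and few were without an asynchronous peak. New regions of the shortened lists were CpG-rich in 44.6% of cases, beside 26.6% of all regions. The NRF1 motif was found in 9.04% of them, beside 4.43% of all.

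The 43 new regions of the deposited lists had folds near the middle of the mitotic lists or below. Their summits held 4 to 16 fragments in the first mitotic library and 4 to 17 in the second, with a median of 6 in both. Their fold had medians of 5.50 and 5.25, beside 5.55 and 5.60 over all peaks of these lists, where summits held a median of 6 and 7 fragments. Of these regions 18 lay at promoters, 15 in introns, 9 between genes and 1 in an exon. The asynchronous Suv39h dn libraries called 30.2% and 76.7% of the new regions, near the 29.0% and 71.3% they called of all regions.

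Up to 5 promoter regions and 5 other regions of each class are described, those with the highest mean percentile of the fold. The lost promoters were those of Cnksr3, a scaffold of kinase signalling, Six4, a homeobox factor, Stat2, a mediator of interferon signalling, Pcdh8, a protocadherin, and Mgmt, a DNA repair enzyme. The Six4 region (chr12:73113334-73113662, 29 bp upstream of the start site) had a fold of 11.5 and 15.6 in the asynchronous libraries. Its summit held 14 and 26 fragments. The Stat2 region (chr10:128270355-128270592, 141 bp upstream) had a fold of 12.1 and 13.9 and the Pcdh8 region (chr14:79771285-79771401, 19 bp upstream) of 10.5 and 14.9. The Cnksr3 region (chr10:7211464-7211610, 713 bp downstream) had 11.3 and 16.2, and the Mgmt region (chr7:136894373-136894562, 142 bp upstream) 9.70 and 15.8. None of the 5 held a peak in either WT mitotic list. All 5 held one in the second mitotic library of the Suv39h dn line, and Six4 and Stat2 in both of its mitotic libraries. Cnksr3 also held one in all 4 libraries of sorted chromosomes.

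Lost regions away from promoters were led by an intergenic region 5649 bp upstream of Gm14444 (chr2:175004460-175004736), with a fold of 10.6 and 19.97 and no mitotic peak. The bases at its summit occur 8 times in the genome. The others were nearest to Aga (chr8:51181669-51181884, intergenic), H2afz (chr3:137833155-137833437, intergenic), Rwdd3 (chr3:120879456-120879787, in an intron of 6530403H02Rik) and Efnb2 (chr8:6974037-6974254, intergenic). Their fold was 9.91 to 11.5 in the first and 14.4 to 19.8 in the second asynchronous library. The Emc2 region with the Esrrb motif (chr15:43529893-43530129) had a fold of 8.32 and 16.7, and the Ccdc54 region with the CTCF motif (chr16:50736837-50737020) of 8.10 and 11.3.

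The strongest kept regions differed from the rest of their class. Among them were promoter regions of the non-coding genes Gm15564 (in Kpna1, chr16:35981592-35981814), Gm24270 (in Peak1, chr9:56223577-56223950), Gm27940 (nearest to Cr2, chr1:195241539-195241890) and Gm11407 (nearest to Tyrp1, chr4:80002898-80002981). Away from promoters the strongest were an intergenic region near Pak3 (chrX:143483000-143483110), one near Dpy19l1 (chr9:24542015-24542251), introns of Il31ra (chr13:112578173-112578308) and Chl1 (chr6:103649055-103649290) and a region near Abcb11 (chr2:69355540-69355660). The Pak3 region had a fold of 60.8 and 56.1 in asynchronous and 58.3 and 60.01 in mitotic ESCs. All of these regions held a peak in all 12 libraries, mitotic chromosomes included. The summit bases of the Gm24270, Il31ra and Chl1 regions occur 3, 3 and 4 times in the genome. The regions near Tyrp1 and Abcb11 hold a match to the mitochondrial genome within 100 bp of the summit.

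Of the 100 strongest kept regions, 91 held a peak in all 12 libraries, beside 8.23% of the other 3099. Promoters made up 11% of these 100 and 66.2% of the others. The median ratio of the mitotic to the asynchronous mean fold was 1.05 in the 100 and 0.688 in the others. The ranking used the fold in the mitotic as well as the asynchronous lists, which favours regions with a high mitotic fold. These ratios therefore cannot tell whether strong regions hold their fold in mitosis. The 31 bases at the summit occurred more than once in the genome for 61 of the 100, and for 15.6% of all kept and 11.2% of lost regions. A match of 31 bases to the mitochondrial genome, within 100 bp of the summit, was found in 17 kept, no lost and no new regions. With only regions of a sequence found once and without such a match, 2689 regions were kept, 7715 were lost and 36 were new. This group of 100 was set after the values were seen.

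The first kept promoters with a sequence found once that lay within 1 kb of a protein-coding start site were those of Oasl1, an antiviral gene, and Zfp960, a zinc-finger gene, named after their values were seen. Oasl1 (chr5:114922453-114922581) had a fold of 14.0 and 20.9 in asynchronous and 14.4 and 19.8 in mitotic ESCs. Zfp960 (chr17:17063907-17064131) had 16.6 and 22.6 in asynchronous and 11.8 and 12.2 in mitotic ESCs, all mitotic values being lower. The sequence of its promoter printed above holds 1 CCAAT-box match.

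New regions at promoters lay by Srsf2, a splicing factor (chr11:116853121-116853191), Sdf4 (chr4:155993022-155993148), Inpp4a, a phosphoinositide phosphatase (chr1:37299903-37299978), Asxl2, a chromatin regulator (chr12:3426855-3426921), and Dapk3, a kinase (chr10:81182189-81182269, in Eef2). Their fold was 4.97 to 6.84 in the first and 4.61 to 7.54 in the second mitotic library. Counted by gene over all its start sites, Srsf2 and Sdf4 were among the new promoters. Inpp4a, Asxl2 and Dapk3 were not, nor was Znrf3, whose sequence is printed above. Away from promoters, the first new region lay in an intron of Gm19951 (nearest to Foxn3, chr12:99645131-99645195), with a fold of 12.2 and 11.8 and a summit sequence found 4 times in the genome. The region in Bbox1 (chr2:110293625-110293695) had a summit sequence found 1864 times. Others were nearest to Wfikkn1 (chr17:25894086-25894176, in Rab40c) and Dgcr6 (chr16:18036752-18036908).

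The classes were looked up in the 8 libraries that did not define them. Mitotic Suv39h dn libraries held a peak in 24.7% and 86.4% of the kept, 1.6% and 23.2% of the lost and 2.36% and 19.0% of all regions. Their lists were of very different length, 1746 and 14328 peaks. Asynchronous Suv39h dn libraries called 90.1% and 99.5% of the kept and 45.0% and 91.2% of the lost regions, beside 29.0% and 71.3% of all regions. In the 4 libraries of sorted chromosomes, 34.0% to 47.5% of the kept and 6.82% to 11.05% of the lost regions held a peak, beside 7.90% to 12.5% of all regions. Kept regions were called more often than lost regions in 8 of 8 libraries, and likewise with lists of equal length. Kept regions were also wider than lost ones, with medians of 261 and 143 bp. They were stronger in the asynchronous lists, with median percentiles of the fold of 85.6 and 93.4, beside 45.6 and 66.7 for lost regions. The part of width and strength in this order was not tested. Sorted chromosomes held a peak in 15.6% to 26.8% of the lost promoter regions and 3.30% to 4.70% of the other lost regions. The shares over all promoter regions and all other regions were 16.1% to 26.5% and 4.55% to 6.83%.

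Motifs were searched on both strands within 100 bp of each summit. NRF1 sites (GCGCNTGCG), found at promoters of genes for mitochondria and growth, were in 3.15% and 2.28% of the asynchronous and 6.16% and 4.42% of the mitotic peaks. Their share was also higher in both mitotic lists at equal length, at 3.45% and 2.46% against 6.16% and 4.96%. GC boxes of the Sp and Klf factors (GGGGCGGGG) were in 5.72% and 4.70% against 9.19% and 7.25%, and at equal length in 7.27% and 6.76% against 9.19% and 8.21%. CCAAT boxes of NF-Y (AGCCAATNN) were in 7.496% and 5.74% against 11.5% and 9.34%. This order turned at equal length, at 11.98% and 13.8% against 11.5% and 11.7%. Of the 12 motifs 10 had groups that did not overlap, each with an exact two-sided permutation p = 0.333 and a Benjamini-Hochberg value of 0.40 over the 12 motifs (n = 2 a side). In the RefSeq promoters of GRCm38.p6, 300 bp each, 6.31% of 32851 hold the NRF1, 11.4% the GC-box and 7.84% the CCAAT motif. These windows are longer than those of the peaks and lie at promoters only, so the shares cannot be compared directly.

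Motifs of pluripotency factors made up smaller shares of the mitotic peaks. The octamer ATGCAAAT, bound by Oct4, was in 3.23% and 2.99% of asynchronous and 2.08% and 2.38% of mitotic peaks. The Sox motif CATTGTNNT was in 3.87% and 3.71% against 2.17% and 3.21%. The Esrrb motif TNAAGGTCA was in 1.48% and 1.44% against 1.00% and 1.18%. At equal length the shares of all 3 motifs were still lower in both mitotic lists, with 2.97% and 3.57% against 2.08% and 2.42% for the octamer. The Sox motif was then at 3.85% and 4.33% against 2.17% and 3.36%, and Esrrb at 1.14% and 1.11% against 1.00% and 0.893%. CTCF sites overlapped between the groups, at 4.43% and 6.27% against 4.11% and 4.98%. At equal length CTCF sites were more frequent in mitosis, at 2.49% and 2.86% against 4.11% and 3.66%. With q at or under 1e-05 the order of the means was the opposite, with a difference of −2.49 points and overlapping groups. The lists of equal length reached down to unlike strengths. Their lowest −log10 q was 5.38 and 14.1 in asynchronous and 1.31 and 4.07 in mitotic ESCs. The part of this in the CTCF shares was not tested.

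The remaining motifs of the 12 were as follows. ETS sites (CCGGAAGT) were in 2.37% and 1.81% of the asynchronous and 3.45% and 2.89% of the mitotic peaks, and the groups overlapped at equal length. CRE (TGACGTCA) was in 1.25% and 0.842% against 1.96% and 1.41%, and the E-box TCACGTGA in 0.443% and 0.359% against 0.770% and 0.541%. At equal length the E-box groups still did not overlap, at 0.539% and 0.416% against 0.770% and 0.570%, and the CRE groups met at 1.66%. The YY1 motif AAGATGGCG was in 2.23% and 3.51% against 1.82% and 1.69%, an order that turned at equal length, with 1.17% and 0.878% against 1.82% and 1.35%. AP-1 sites (TGANTCA) overlapped between groups.

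The fate of regions with a motif was compared with that of regions without it, weighted to the same strength bins. Promoter regions with a CCAAT box were kept in 45.7% of 1035 cases and lost in 19.6%, while those without it were kept in 27.1%, or 37.0% at equal strength, a lower share in 9 of 10 bins. With lists of equal length the shares were 59.5%, 51.01% and 53.2%, and those with the motif were higher in 5 of 10 bins. Away from promoters, 678 regions with a CTCF motif were kept in 4.13% of cases, beside 11.6% without the motif. Their median strength percentile was 49.4, beside 61.6 without the motif, and regions without it were kept in 5.73% of cases at equal strength. Regions with an octamer (458) were kept in 5.90% of cases, beside 11.04% at equal strength without it. For the Sox motif (588 regions) the shares were 7.14% and 12.9%, and for Esrrb (191 regions) 8.90% and 9.90%. CpG-rich promoters were kept in 34.8% of cases, beside 26.3% of other promoters at equal strength. In lists of equal length the share kept was again lower with the octamer (18.8% of 80 regions beside 28.9%) and the Sox motif (16.9% of 124 beside 29.7%), but not with the Esrrb motif (28.1% of 32 beside 27.9%).

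Soft-masked repeats made up 20.8% and 23.0% of the asynchronous and 15.3% and 17.7% of the mitotic peaks (means 21.9% ± 1.57 and 16.5% ± 1.65, SD, n = 2, exact permutation p = 0.333). This difference of −5.40 points became 0.138 with peaks of q at or under 1e-05, and the libraries then overlapped. Among regions of both asynchronous lists, those with a soft-masked summit were kept in 17.3% of 3088 cases, beside 18.99% of those without. Outside promoters the order was the reverse, with 15.5% kept beside 9.58%, or 12.6% at equal strength, and a higher share in 10 of 10 bins. The lost shares at equal strength lay close, at 57.3% beside 58.1%. With lists of equal length the kept shares at equal strength were 41.9% beside 37.1%, higher in 7 of 10 bins. For single-copy regions they were 13.6% beside 10.7%, higher in 8 of 10.

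By gene, 6269 of the 21842 protein-coding genes had a promoter summit in both asynchronous lists. Kept promoters numbered 2230 (10.2%), lost promoters 1876 (8.59%) and new promoters 15 (0.0687%). Of the 6269, 35.6% were kept, 34.5% had a summit in 1 mitotic list and 29.9% were lost. With lists of equal length 1120 (5.13%) were kept, 275 (1.26%) lost and 365 (1.67%) new. Without the first asynchronous library 5161 were lost, without the second 322 were new, without the first mitotic library 3930 were kept and 163 new, and without the second 3576 were lost and 75 new. The 15 new promoters included both genes of shared promoters, such as Srsf2 and Mfsd11 or B3galt6 and Sdf4, and that of Sumo2, which encodes a small modifier protein. Sumo2 had a fold of 4.44 and 5.49 in mitosis, on 5 and 7 fragments.

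Of 42 genes that run mitosis, 33 and 41 had a promoter summit in the asynchronous and 20 and 28 in the mitotic lists. These were 78.6%, 97.6%, 47.6% and 66.7% of the list, beside 30.2%, 50.0%, 15.6% and 23.7% of all protein-coding genes. Of the 42 genes, 33 had a summit in both asynchronous lists. In mitosis 16 of the 33 (48.5%) were kept, 10 had a summit in 1 mitotic list and 7 (21.2%) were lost. Over all genes 35.6% were kept and 29.9% lost. The median strength percentile of the 33 was 83.8, beside 75.9 over all genes, and its part in this was not tested. At equal length 8 of 14 (57.1%) were kept, beside 56.8% over all genes. The kept promoters included those of Ccna2, which encodes cyclin A, the checkpoint genes Mad2l1, Bub3, Bub1b and Ttk, the condensin genes Ncapg, Ncapd2 and Ncapd3, and Cdc20 and Ube2c of the anaphase-promoting pathway. Cenpf, a kinetochore gene, had a fold of 14.5 and 16.7 in asynchronous and 6.53 and 7.57 in mitotic ESCs. Mad2l1 had 12.2 and 15.6 against 6.42 and 7.65. Smc3, a cohesin gene, had 6.86 and 6.59 against 8.15 and 7.70, with both mitotic values higher.

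The 7 lost promoters of this list were those of Aurkb and Cdca8, both of the chromosomal passenger complex, Cdc25b and Wee1, which set the activity of Cdk1, Kif20a, Ncaph and Ncaph2. Cdca8 was the strongest, with a fold of 8.97 and 13.2 in asynchronous ESCs. The cyclin B genes Ccnb1 (7.32 and 9.29) and Ccnb2 (6.92 and 13.9) had a mitotic summit only in the second mitotic library, at 4.90 and 5.42. Cdk1 was called in 3 lists, at 10.7 in the second asynchronous library and 5.52 and 8.28 in mitosis. Plk1, Birc5, Cenpe and Ndc80 were called in the second asynchronous list alone, and Bub1 in none.

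**Figure D4:**
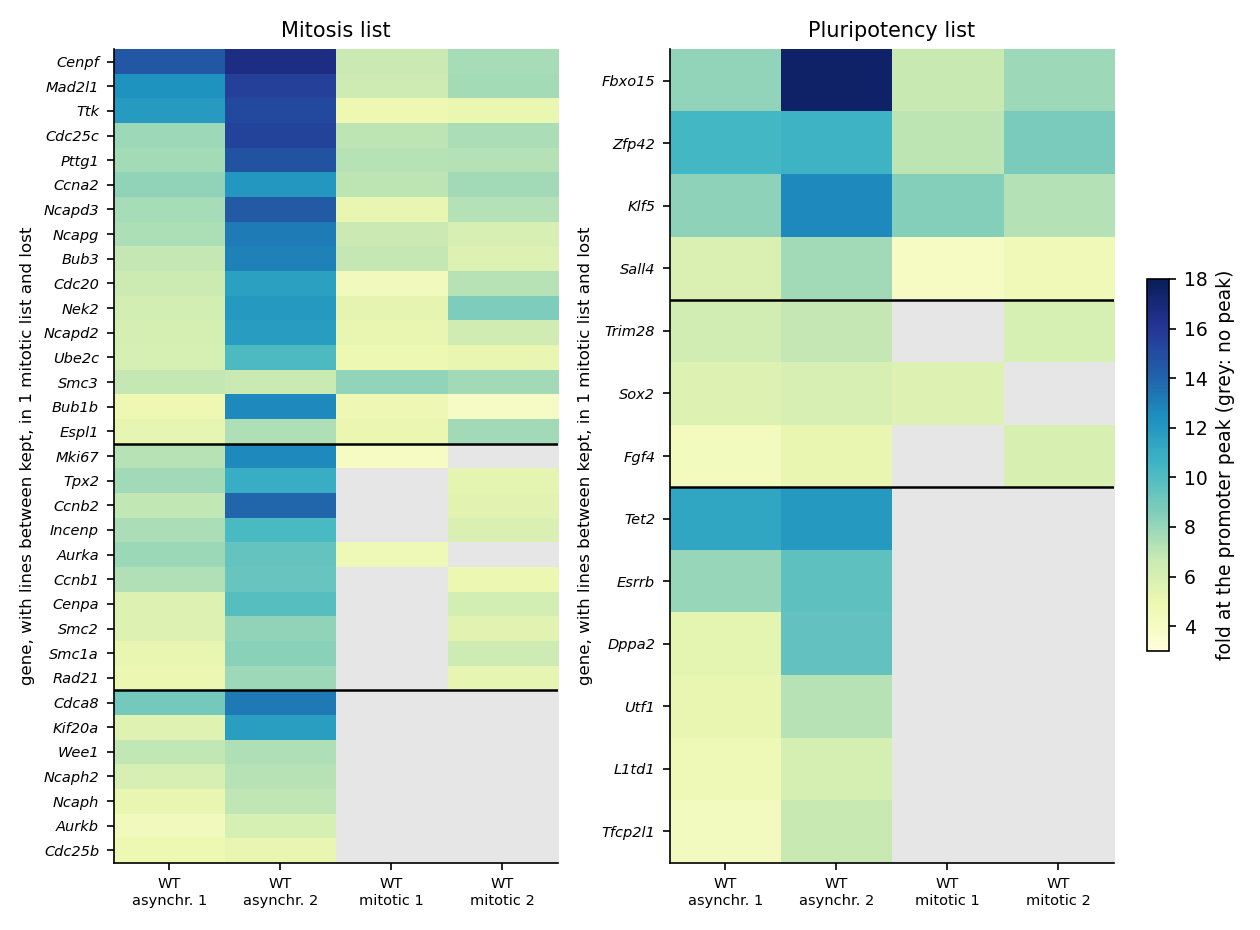
Fold at the strongest promoter peak of each gene (colour scale; grey means no peak) in the 4 libraries, for genes of the mitosis list (33) and the pluripotency list (13 of 14 shown) with a peak in both asynchronous lists. Lines separate kept genes (16 and 4), genes called in 1 mitotic list (10 and 3) and lost genes (7 and 6).

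Pluripotency genes were called in 44.1% and 76.5% of cases in the asynchronous and 17.6% and 29.4% in the mitotic lists, beside 30.2%, 50.0%, 15.6% and 23.7% of all protein-coding genes. Of 34 such genes, 14 had a promoter summit in both asynchronous lists, and 4 of them were kept, 3 had a summit in 1 mitotic list and 7 were lost. The lost share was 50.0%, beside 29.9% over all genes, on 14 genes. The median strength percentile of the 14 was 67.5, beside 75.9 over all genes, and its part in this was not tested. Kept promoters were those of Zfp42 (Rex1), Klf5, Fbxo15 and Sall4. Zfp42 had a fold of 10.4 and 10.7 in asynchronous and 7.03 and 8.77 in mitotic ESCs. Klf5 had 8.24 and 12.7 against 8.45 and 7.27, with overlapping groups. Lost promoters included those of Esrrb, Tfcp2l1, Dppa2, Utf1, Tet2 and L1td1. Tet2, which encodes an enzyme that oxidizes methylated cytosine, had 11.3 and 11.95 in asynchronous ESCs, and Esrrb 7.99 and 9.58. At equal length 3 of 4 (75.0%) were kept, beside 56.8% over all genes, and Tet2 was lost.

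The genes of the core factors were called in few lists. Sox2 had a promoter peak in both asynchronous lists (5.70 and 5.93) and in the first mitotic list (5.71). Pou5f1, which encodes Oct4, had one only in the second asynchronous list, at 11.01, and so had Nanog, at 4.78. Regions outside promoters within 50 kb of the nearest start site of the 34 listed pluripotency genes numbered 50 in both asynchronous lists. Of these 7 (14.0%) were kept and 28 (56.0%) were lost, beside 10.6% and 60.8% near all protein-coding genes. Near Klf2, 2 of 3 such regions were kept, near Nanog 1 of 2, and near Tet2 1 of 7, with 6 lost. Near Esrrb none of 3 was kept. For mitosis genes 9 such regions were found, none kept and 8 lost, and for stress genes 12, with 3 kept and 3 lost.

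Genes of the immediate response to stress and serum were split among the classes. Of 25, 17 had a summit in both asynchronous lists, and 7 (41.2%) were kept, 4 were called in 1 mitotic list and 6 (35.3%) were lost, near the 35.6% and 29.9% over all genes. Kept promoters included the heat-shock genes Hspa8, Hsph1 and Dnajb1 and the damage-response genes Gadd45a and Gadd45b. Gadd45a had a fold of 10.5 and 16.2 in asynchronous and 6.73 and 8.396 in mitotic ESCs. Lost promoters included those of Egr2, Atf3, Atf4, Myc, Dusp1 and Ier3. None of the 25 was new in mitosis, as were only 15 of all 21842 protein-coding genes (0.0687%).

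Genes for short non-coding RNAs of the basal machinery, most of them made by RNA polymerase III, were kept in 4 of 7 cases. This was 57.1%, beside 35.6% over all protein-coding genes. Their median strength percentile was 83.3, beside 75.9 over all protein-coding genes. Rpph1, the RNA of ribonuclease P, had a fold of 8.25 and 10.5 in asynchronous and 6.77 and 7.05 in mitotic ESCs, and Rnu2-10, a U2 spliceosomal RNA gene, had 6.55 and 10.9 against 6.31 and 8.71. The signal recognition particle genes Rn7s1 and Rn7s2 were also kept. Rn7sk, which holds back elongation of RNA polymerase II, was called in both asynchronous libraries and in the second mitotic library, and the vault RNA gene Vaultrc5 was lost. These genes have near-identical copies, which makes the placing of their reads uncertain.

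Among larger families, histone cluster genes were kept in 17 of 30 cases (56.7%) and lost in 2. Hist1h2ac and Hist1h2bc share 1 promoter region, with a fold of 5.17 and 10.4 in asynchronous and 7.502 and 8.36 in mitotic ESCs. At equal length only 1 of 4 (25.0%) was kept, below the 56.8% of all genes. Of the 68 listed genes 3 (4.41%) were then new, beside 1.67% of all genes. Genes that share a promoter region are each counted. Of 13 proteasome genes 4 (30.8%) were kept, 9 were called in 1 mitotic list and none was lost, beside 35.6%, 34.5% and 29.9% over all genes. Psmd7, one of the kept genes, had 7.62 and 7.94 against 6.53 and 6.27. Ribosomal protein genes were kept in 11 of 32 cases (34.4%), among them Rpl15 (9.14 and 15.2 against 7.57 and 7.87). Zinc-finger genes named Zfp were kept in 67 of 178 cases (37.6%) and lost in 44, of which Zfp971 and Zfp810 were the strongest.

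Lineage genes were called in 31.4% and 45.1% of cases in the asynchronous lists, beside 30.2% and 50.0% of all protein-coding genes, and in 3.92% and 17.6% in the mitotic lists, beside 15.6% and 23.7%. Of these 51 genes, 12 had a summit in both asynchronous lists. Of the 12, 2 (16.7%), Isl1 and Pax5, were kept and 6 (50.0%) were lost, led by Tbx20 and Foxa2. Over all protein-coding genes 35.6% were kept and 29.9% lost. The median strength percentile of the 12 was 68.8, beside 75.9 over all genes, and its part in this was not tested. At equal length 1 of 3 (33.3%) was kept, beside 56.8% over all genes. Isl1, a homeobox factor of heart and neurons, had a fold of 8.78 and 14.2 in asynchronous and 4.63 and 6.03 in mitotic ESCs. Of 13 annotated genes of the zygotic programme, only Duxf3 was called in both asynchronous lists, and it was lost. Of 1091 olfactory receptor genes, 7 and 16 were called in the asynchronous and 1 and 2 in the mitotic lists, none of them kept.

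**Figure D5:**
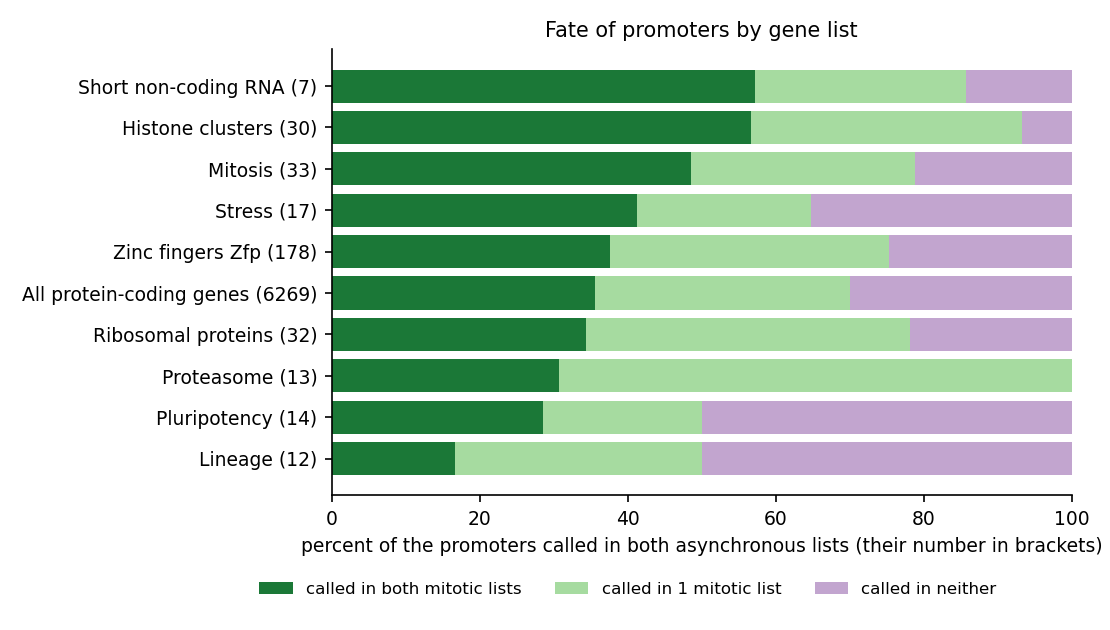
Percent of promoters kept (dark green), called in 1 mitotic list (light green) or lost (purple), among the promoters called in both asynchronous lists, for gene lists with at least 7 such promoters; brackets give their number. Histone (56.7% kept) and mitosis genes (48.5%) lie above all protein-coding genes (35.6%) and pluripotency genes (28.6%) below, an order that turned at equal length for histone (25.0% beside 56.8%) and pluripotency genes (75.0%).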

How the data were processed

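ATAC-seq fragments of 50000 cells a library were amplified for 7 cycles. Per the study's methods and processing notes, the authors used bcl2fastq 2.20.0, Trim Galore 0.4.4, Bowtie2 2.2.9 and SAMtools 1.2, removed duplicate and mitochondrial reads, kept short fragments and called peaks in each library with MACS2 on mm10. The deposited lists give, per peak, the fold of the summit over background, a score, and −log10 p and q values as the authors' MACS2 runs wrote them (lowest −log10 q 1.30 to 1.31). Removal of blacklisted regions is described, yet peak numbers run without a gap in all 4 lists.

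Positions, summits, fold and p-values were analysed in Python 3.11.15 with pandas 2.3.3 and SciPy 1.17.1, with GENCODE M21 genes on GRCm38. Fragments and background were recovered from the fold and p for 100% of peaks with −log10 p under 60 (tolerance 0.001). They limit precision to counting error. The lists were compared with an exact two-sided permutation test over 6 arrangements. Scripts were tested on simulated data. Named regions were the 5 promoter and 5 other regions of each class with the highest mean percentile of the fold. Genes of the pluripotency, mitosis, stress and short non-coding RNA lists could all be named, and of longer lists the 2 kept and 2 lost genes ranked highest. Sequences came from the reference genome, and RefSeq promoters gave the share with each motif. CTCF was searched by a 12-base consensus. Regions, lists and comparisons were chosen with earlier results of these data known, and the single-copy regions, the 100 strongest and the Zfp960 sequence after the values were seen. Alternatives were list length, q, overlap, merging, start-site and motif windows, and leaving out each library. A few named regions and genes that these rules select are not reported here.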

Additional observations from a re-analysis of the deposited data

How the results depend on the processing

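The difference in list length and in promoter and CpG-rich shares kept its direction under the alternatives run, and none could reach a p below 0.333. The repeat share reversed to 0.138 percentage points with q at or under 1e-05. Leaving out 1 library at a time gave differences of −2.61 to −1.26 in log2 list length, 12.2 to 23.8 points in promoter share, 8.12 to 18.5 points in CpG-rich share and −6.57 to −4.24 points in repeat share. With lists of equal length 1653 regions were kept, 897 lost and 509 new, 1120 promoters were kept, 275 lost and 365 new, and promoters were kept more often by 17.9 points at equal strength. With q at or under 1e-05, 1015 regions were kept, 3746 lost and 8 new, and 635 promoters were kept and 0 new. Kept regions numbered 1004 where peaks had to cover 50% of the region, and new regions 65 with peaks merged by summits. Leaving out 1 library gave 3149 to 7455 kept, 9668 to 43899 lost and 67 to 1710 new regions, 2235 to 3930 kept, 2144 to 5161 lost and 20 to 322 new promoters, and 6.41 to 14.8 points for promoters at equal strength. Among motifs, equal length reversed CTCF (1.21 points), NF-Y (−1.29), ETS (−0.262) and YY1 (0.562). With q at or under 1e-05 CTCF kept the direction of the deposited lists, at −2.49 points. Leaving out 1 library gave −1.73 to 0.113 points for CTCF and −1.47 to 0.307 for AP-1. Shorter lists hold fewer regions by construction; the cause of the reversals was not tested. The libraries carry the numbers 1 and 2 in both groups, which the labels do not tie to a shared culture or day. With the replicate block the promoter share differed by the same 18 points, with an exact permutation p of 0.5, the smallest that 2 pairs allow, and no direction changed. Among regions of a single-copy sequence 2689 were kept, 7715 lost and 36 new, an alternative chosen after seeing the data. Summits of new regions hold a median of 6 fragments, which limits their precision.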

Other observations

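Promoter regions of chromosomes 8, 11, 17 and X were set against the rest at equal strength, a choice made after the values of all chromosomes were seen. On chromosome 11, 39.3% of 422 promoter regions of both asynchronous lists were kept, beside 26.4% of promoter regions elsewhere at equal strength, and the share was higher in 9 of 10 strength bins. With lists of equal length it was 63.4% beside 50.5%. The shares were 38.5% of 301 beside 29.98% on chromosome 17, higher in 8 of 10 bins, and 38.99% of 477 beside 34.2% on chromosome 8, higher in 5 of 10. Peaks of chromosome 11 made up 5.65% and 5.95% of the asynchronous and 8.02% and 7.06% of the mitotic lists.

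On the X chromosome 14.5% of 221 promoter regions were kept, beside 26.7% elsewhere at equal strength, and 52.04% were lost, beside 38.2%. With lists of equal length 26.1% of 46 were kept, beside 49.9%. Peaks of the X chromosome made up 2.99% and 2.91% of the asynchronous and 1.65% and 2.05% of the mitotic lists. Away from promoters, X-linked regions were kept in 9.56% of 272 cases, beside 10.7% elsewhere at equal strength. The ESC lines of the study are male.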
